A study of Mus musculus with 4 samples.

Results

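C-type lectins are proteins that share a fold first known from calcium-dependent sugar binding. The genes described here were selected by name on a mouse expression array: every gene whose symbol begins with Clec and a digit, with Klr and a letter from a to k, or with Cd209, together with Cd207 (langerin), Cd69, Cd72, Mrc1 and Mrc2. The rule took 75 of the 34789 gene names on the array, read by 110 of 55681 probes. They were set apart as a myeloid group of 28 genes, a lymphoid group of 38 and a stromal and other group of 8. The last gene, Klraq1, is caught by its letters only and is not a lectin. The set was chosen by people who knew results of the comparison below, so the members' differences between groups are a description and are not used as a test of the family.

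The study measured RNA of the lumbar spinal cord in 4 male ICR mice, an outbred strain, aged 8 weeks. Spinal nerve ligation (SNL), a surgical model of neuropathic pain, was done in 2 of them by a tight tie around the L5 nerve, and in 2 sham mice the same nerve was laid open without a tie. Tissue was taken at day 10 after perfusion with saline, from the L4 and L5 segments by the protocol and from L5 by the source field, with the side of the cord not given in the sources used here. Each mouse gave 1 sample and 1 array, no allele or drug was used, and the question is how the cord's RNA at that day differs with the tied nerve.

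On myeloid cells, C-type lectin receptors bind sugars and lipids of microbes and of damaged cells, and signal through the kinase Syk, often by way of the adaptor Fcer1g, or inhibit through phosphatases. Langerin is the receptor of Langerhans cells of the skin, where it forms Birbeck granules, and is also carried by some dendritic cells. On natural killer (NK) and T cells the related Klr receptors bind MHC class I molecules or Clec2 proteins and set the threshold for killing. The Klra genes, known as Ly49 receptors, are a family of related genes whose number and sequence differ between mouse strains.

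Levels are log2 signals relative to each array's 75th percentile, and a change is the SNL mean minus the sham mean on that scale, with the standard error (SE) of a limma fit over all 29246 genes tested. A level tells mice apart for 1 probe and does not rank genes, because probes differ in brightness. In a bulk sample, fewer cells of a type and less RNA per cell cannot be told apart. Of the 75 genes, 58 were tested, meaning that some probe passed the scanner's test of being well above background on 2 or more arrays, and 47 of them did so on all 4. Of the 17 others, 14 were well above background on no array and 3 on 1 array. No spot was saturated, arrays correlated at 0.982 to 0.991 across genes, and 74.9% to 82.1% of spots were well above background, with both SNL arrays below both sham arrays. The lowest signal well above background was -7.86 and -8.01 in the sham mice and -6.89 and -7.01 in the SNL mice. Of the 14 members well above background on no array, all but Cd209c and Clec4g read higher in SNL, such as Klrk1 by 0.99 and Cd209e by 0.79. The part of this offset in the changes of dim genes was not tested. The tissue's own markers, 7 neuronal, 5 astrocyte and 5 oligodendrocyte genes, were all tested, with Syt1 read in 3 of the 4 mice, and had median changes of 0.12, 0.06 and 0.09. Both sham arrays lay in row 1 of the 1 slide and both SNL arrays in row 2, so row and group cannot be told apart.

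Of the mapped members, 53 of 72 have their probe on chromosome 6 and 10 on chromosome 8, where the Cd209 genes lie. The sequences below are shown because they carry the findings that stand apart: the probe that read Cd207, and the Klra probes whose letters nearly coincide. The Cd207 probe lies on mm9 chr6:83621442-83621501, minus strand, and its first 30 of 60 bases are these.

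Cd207 probe: ccttggaggagcttgggttaaacgggtgag

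The next 4 stretches are aligned, each 30 bases long, and cover bases 2 to 31 of the Klra4 probe. Capitals mark bases that differ from the Klra4 probe.

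Klra4 probe: tatttgtgggaagagattggacaaattccc
Klra15 probe: tatttgtgggaagagattggacaaattccc
Klra23 probe: tatttgtggTaagagaCtggaTaaattccc
Klra7 probe: tatttgtggTaagagaCtggaTaaattTcc

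Klra15 and Klra4 have the same letters here, and over the 59 bases that their probes share 53 are identical. In this stretch Klra23 has 3 mismatches and Klra7 has 4. Over all the bases that they share with the Klra4 probe, 39 of 42 and 51 of 57 are identical. Of all members' probes, 15 pairs aligned over at least 30 bases at 85% identity or more, and the 12 pairs from different genes were all Klra genes. A signal under one Klra name can therefore hold transcripts of another, and values of these genes are given as values of their probes.

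In the myeloid group 8 tested genes were higher in both SNL mice than in either sham mouse. For 4 of them, langerin, Clec4a3, Clec4d and Clec4e, the promoters are shown. Each is the 250 bases before the start site, in gene direction, from RefSeq on GRCm38.p6, at chr6:83677858-83678107 on the minus strand, chr6:122952265-122952514 on the plus strand (the first of 2 windows listed for Clec4a3), chr6:123261857-123262106 on the plus strand and chr6:123289872-123290121 on the minus strand. Capitals mark matches on either strand to GAGGAAG (the motif of the myeloid factor PU.1), TGANTCA (AP-1) or TATAAA (the TATA box).

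Cd207 promoter: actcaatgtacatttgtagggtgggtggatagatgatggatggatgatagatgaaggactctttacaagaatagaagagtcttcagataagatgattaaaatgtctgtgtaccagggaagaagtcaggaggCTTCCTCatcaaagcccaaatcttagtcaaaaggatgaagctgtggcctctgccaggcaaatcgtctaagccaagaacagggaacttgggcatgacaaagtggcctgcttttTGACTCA
Clec4a3 promoter: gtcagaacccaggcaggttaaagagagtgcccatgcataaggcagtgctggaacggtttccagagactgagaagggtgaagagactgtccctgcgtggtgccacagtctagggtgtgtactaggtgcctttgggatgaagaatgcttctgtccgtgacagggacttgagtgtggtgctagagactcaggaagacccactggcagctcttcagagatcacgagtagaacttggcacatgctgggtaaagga
Clec4d promoter: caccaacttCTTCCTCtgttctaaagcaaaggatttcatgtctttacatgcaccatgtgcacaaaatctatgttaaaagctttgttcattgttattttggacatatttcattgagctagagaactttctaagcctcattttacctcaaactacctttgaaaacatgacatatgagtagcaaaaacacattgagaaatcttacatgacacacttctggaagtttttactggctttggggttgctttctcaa
Clec4e promoter: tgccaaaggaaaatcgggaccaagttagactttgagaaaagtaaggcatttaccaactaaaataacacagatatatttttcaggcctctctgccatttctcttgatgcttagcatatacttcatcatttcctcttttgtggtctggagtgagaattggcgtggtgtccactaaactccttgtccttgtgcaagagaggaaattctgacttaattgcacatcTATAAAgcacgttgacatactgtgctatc

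In these windows Cd207 holds 1 PU.1 match, 119 bases before the start, and 1 AP-1 match, 7 bases before it. Neither of the 2 Clec4a3 windows holds a match to any of these motifs. Clec4d holds 1 PU.1 match and Clec4e 1 TATA box, 29 bases before its start. Among 32851 mouse promoter windows of this length, 10.6% hold the PU.1 letters, 6.75% the AP-1 letters and 12.4% the TATA box. Among the 17 tested myeloid members with a window, the counts were 4, 3 and 7, and among 21 lymphoid members 5, 2 and 8. A member was counted if any of its windows held the letters, while the shares are per window. The counts and the shares are therefore not in the same unit. A match describes the letters of the window and is not a measured site.

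Langerin had the largest change of the 58 tested members. Its log2 level was -5.04 and -4.87 in the sham mice and -1.55 and -1.79 in the SNL mice. Both SNL mice lay far above both sham mice, and the probe was well above background on all 4 arrays. The change was 3.29 ± 0.14 (SE, n = 2 per group), or 9.77-fold. Cd207 was the 1 member called at a limma adjusted p under 0.05 (0.0410), where 0.171% of all genes tested (50 of 29246) were called. That call ended with quantile normalization (adjusted p = 0.0608 in limma), and on leaving out any 1 mouse (0.109 to 0.500), while the change stayed between 3.12 and 3.41 in 12 settings. The neighbouring gene Clec4f, a receptor of liver macrophages, whose probe lies at chr6:83595281-83595339 on mm9, was at 0.23 ± 0.53, and its groups overlapped.

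Other genes by which Langerhans and dendritic cells are known were read beside it. Epcam, an adhesion molecule of Langerhans cells, was at -2.68 and -3.07 in sham and -2.85 and -2.62 in SNL, with overlapping groups. Itgax, which encodes CD11c of dendritic cells and activated microglia, was at -3.53 and -3.51 in sham and at -1.06 and -1.76 in SNL, higher in both SNL mice (2.12 ± 0.27), and did not pass in limma (adjusted p = 0.154). Of the 16 genes in this marker list, which holds the member Cd209a, all were tested and none was called. Groups were higher in SNL without overlap for 5 and lower for 3, where 24.7% and 20.7% of all genes were so. The median change of the list was 0.19. The summed signal of the list, in units of each array's 75th percentile, was 11.2 and 10.2 in sham and 11.3 and 10.1 in SNL. Such a sum rests mostly on the brightest probes, here Cadm1 and Id2, each at 1.76 in sham replicate 1. It therefore says little about the dim markers of the list. Beside Itgax, those higher without overlap were Batf3, Zbtb46, Itgae and Ly75, at 0.57 ± 0.15, 0.26 ± 0.16, 0.11 ± 0.09 and 0.82 ± 0.45. Those lower were Flt3, Ccr7 and Id2, at -0.38 ± 0.10, -0.28 ± 0.17 and -0.14 ± 0.09. Ly75 and Ccr7 were well above background on 2 arrays only. Xcr1 and Irf4 were at -0.11 ± 0.20 and -0.06 ± 0.23, with overlap.

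**Figure D1:**
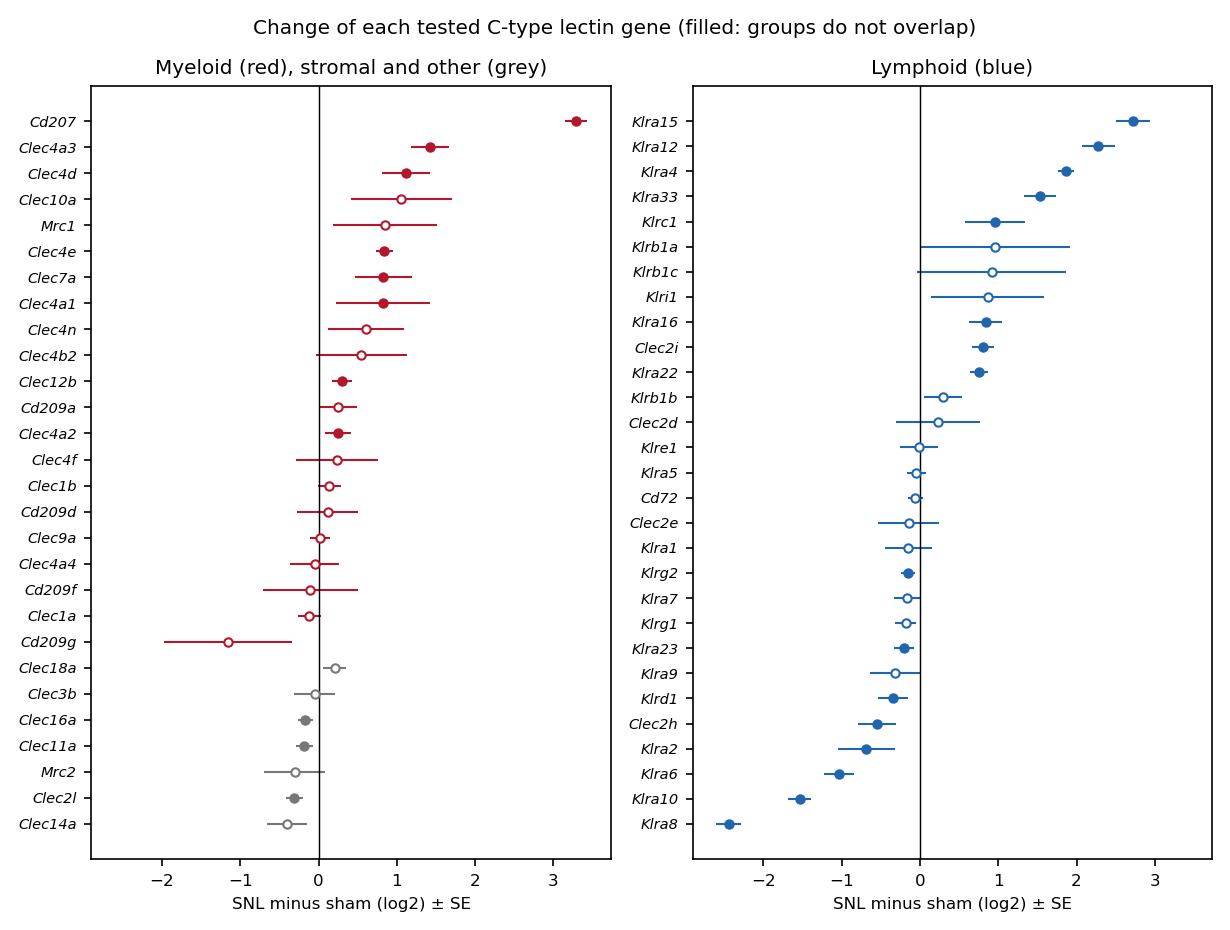
SNL minus sham change on the log2 scale with its SE for each tested myeloid (red), stromal and other (grey) and lymphoid (blue) gene, filled where the 2 mice of one group lie wholly above or below those of the other. Cd207 stands at 3.29, and the lymphoid genes run from 2.72 for Klra15 to -2.44 for Klra8.

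In the myeloid group 21 of 28 genes were tested, with changes from -1.16 to 3.29 and a median of 0.30, where the median of all genes was 0.03. The groups of mice did not overlap and SNL was higher for 8 of the 21, where 24.7% of all genes did so, and for none was SNL lower without overlap, where 20.7% of all genes did so. With a change of at least 2-fold as well there were 3 (Cd207, Clec4a3 and Clec4d), where 2.34% of all genes did so. The members had been picked with this contrast in view, so nothing is read from these counts.

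The Clec4 genes, a cluster of paired activating and inhibitory receptors, had 9 of 11 members tested, 8 of them above 0, with a median of 0.60. Clec4a3, of the DCIR family, was at -5.20 and -4.86 in sham and at -3.86 and -3.35 in SNL. Clec4d, which encodes the glycolipid receptor MCL, was at -5.38 and -4.67 against -4.08 and -3.74. Clec4e, which encodes Mincle, a partner of MCL that binds mycobacterial glycolipids, was at -7.19 and -7.15 against -6.41 and -6.25. In these 3 genes both SNL mice were above both sham mice. Their changes were 1.42 ± 0.24, 1.12 ± 0.30 and 0.84 ± 0.11, with limma adjusted p of 0.199, 0.332 and 0.150, so none passed. Both Clec4e sham levels lay below the lowest signal well above background on either SNL array (-6.89 and -7.01), so its change lies near the detection limit. Clec4a2, an inhibitory DCIR receptor, was at 0.25 ± 0.17, with a sham value of -6.30 next to an SNL value of -6.29.

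Clec7a, the beta-glucan receptor Dectin-1 of macrophages and activated microglia, was at -3.38 and -3.89 in sham and at -2.41 and -3.22 in SNL. The higher sham mouse lay close below the lower SNL mouse, and the change was 0.83 ± 0.36 (adjusted p = 0.491 in limma).

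A second set of myeloid receptors was set apart by 1 sham mouse. Mrc1, the mannose receptor of perivascular and border macrophages, was at -2.17 and -3.92 in sham and at -2.33 and -2.05 in SNL. Clec10a, a receptor for galactose-type sugars, was at -4.11 and -5.70 against -4.16 and -3.54. Clec4a1 was at -3.14 and -4.76 against -3.12 and -3.13. In each of these genes sham replicate 2 was the lowest mouse and sham replicate 1 lay beside the SNL mice. Clec4n, the mannan receptor Dectin-2, had the same order, at -4.86 and -6.10 against -5.06 and -4.69. The changes were 0.85 ± 0.66 for Mrc1, 1.06 ± 0.64 for Clec10a, 0.82 ± 0.60 for Clec4a1 and 0.60 ± 0.49 for Clec4n. Without sham replicate 2 they were -0.02, 0.26, 0.01 and -0.02.

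Sham replicate 2 was the lowest mouse for 12 of the 21 tested myeloid genes and for 6779 of all 29246 genes. It was also the lowest for 10 of 10 markers of border and perivascular macrophages, among them Lyve1 (-2.20, -4.69, -2.41 and -2.12 in sham 1, sham 2, SNL 1 and SNL 2). The summed signal of that list was 2.09 and 0.85 in the sham mice and 2.25 and 2.17 in the SNL mice. Without overlap 3 of the 10 were higher in SNL and none was lower, where 24.7% and 20.7% of all genes were so. These were Ms4a6d (-3.05 and -3.48 in sham, -1.41 and -0.76 in SNL), F13a1 at 0.82 ± 0.38 and Cd163 at 0.77 ± 0.25. Of the 9 markers of fibroblasts and meninges, 8 were lowest in the same mouse, with sums of 27.4 and 17.3 in sham against 27.9 and 19.8 in SNL. The part of these markers in the changes of Mrc1, Clec10a, Clec4a1 and Clec4n was not tested.

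The 12 microglia markers, such as Tmem119 and P2ry12, more often separated the groups. Their summed signal came to 43.0 and 44.8 in the sham mice against 62.6 and 53.8 after ligation. Of the 12, 10 were higher in SNL without overlap and 1 (Sall1) was lower, where 24.7% and 20.7% of all genes were so. The median change of the 12 markers was 0.50. Their part in the changes of Clec4a3, Clec4d, Clec4e and Clec7a was not tested either.

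**Figure D2:**
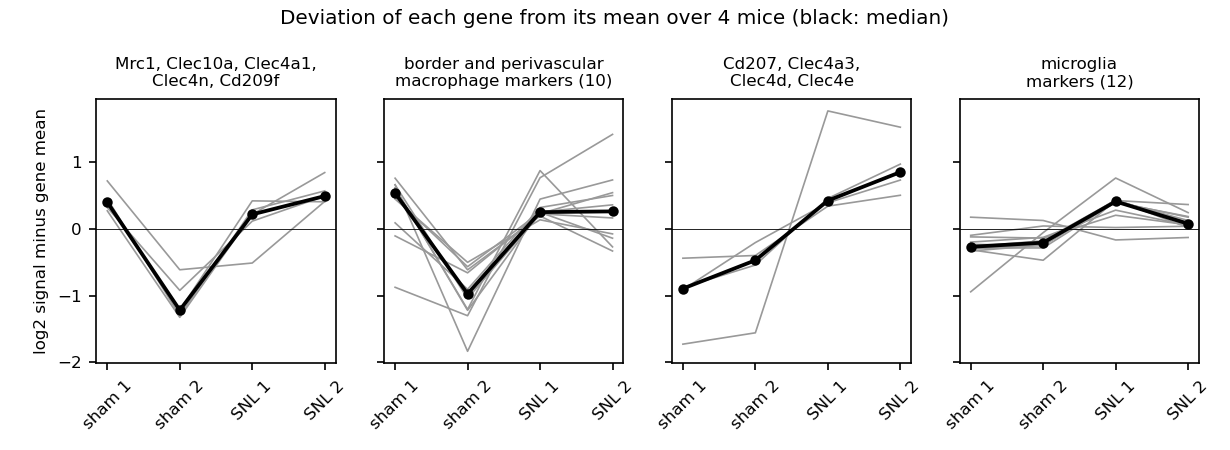
Each gene's log2 level in each of the 4 mice minus its mean over them (grey lines), with the median in black, for 2 sets of members and for 2 marker lists. Mrc1, Clec10a, Clec4a1 and Clec4n and the 10 border macrophage markers dip in sham 2, and Cd209f is low in both sham 2 and SNL 1. Cd207, Clec4a3, Clec4d and Clec4e and most of the 12 microglia markers separate sham from SNL.

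The Cd209 genes, mouse relatives of the dendritic cell receptor DC-SIGN, showed no common direction. Of 7 on the array 4 were tested, and Cd209b, Cd209c and Cd209e were well above background on no array. Cd209a and Cd209d were at 0.25 ± 0.24 and 0.12 ± 0.38. Cd209f was at -3.05 and -4.39 in sham and at -4.28 and -3.36 in SNL, so that 1 mouse of each group was high and 1 low. Cd209g was at -5.02 and -5.76 against -7.57 and -5.52, with SNL replicate 1 the low mouse and not well above background there.

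Of the remaining myeloid members, Clec9a, the receptor for dead cells on cross-presenting dendritic cells, was at 0.02 ± 0.13. Clec1b, the podoplanin receptor of platelets, was at 0.14 ± 0.15 by its brightest probe, while its other probes gave 1.93 and 2.02, and the mean of its probes gave 1.36. For the probe at 2.02 the levels were -5.77 and -4.70 in sham against -2.94 and -3.49 in SNL, without overlap, so the 3 probes of this gene disagree on the size of the change. Platelet and red cell markers were at a median of 0.23, with Ppbp at -4.92 and -5.07 in sham and at -1.85 and -4.83 in SNL. Clec12a, an inhibitory receptor for uric acid crystals, was not well above background on any array, and Clec5a, a Tyrobp-coupled receptor of monocytes, on 1 sham array only. Monocyte and neutrophil markers had a median change of -0.32. Of 10 tested, 3 were lower and 1 was higher in SNL without overlap, where 20.7% and 24.7% of all genes were so.

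**Figure D3:**
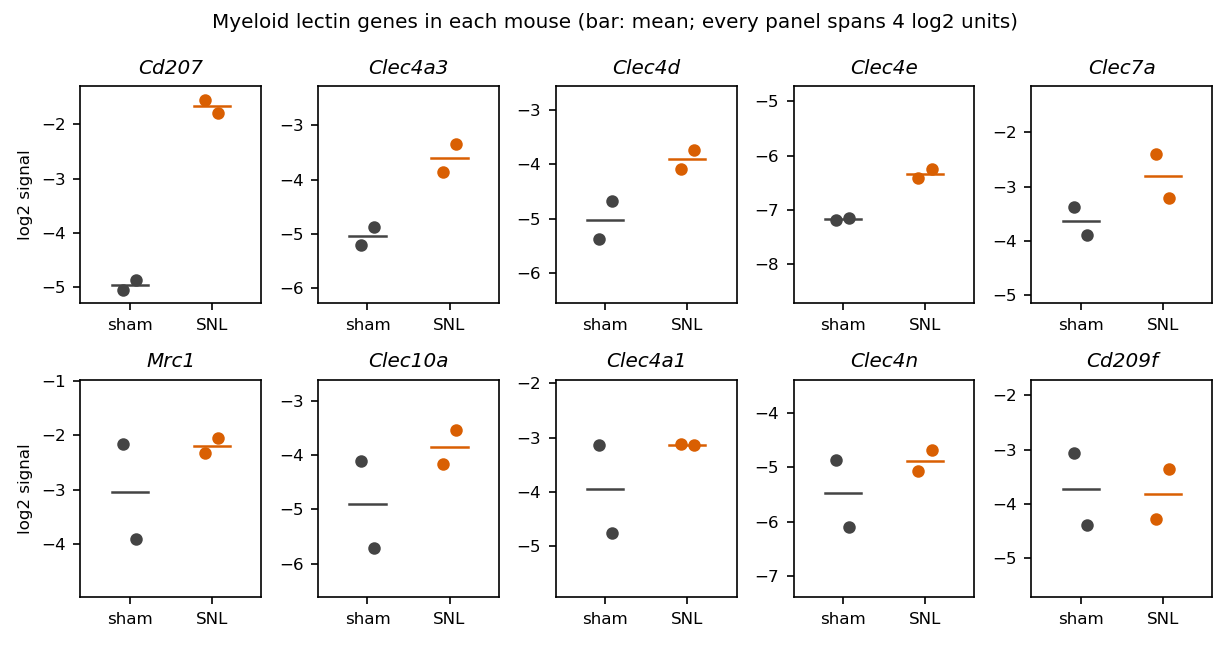
Log2 signal of 10 myeloid lectin genes in each mouse, with the group mean as a bar and every panel spanning 4 log2 units. In the upper row both SNL mice lie above both sham mice, and in the lower row 1 sham mouse lies apart from the other.

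In the lymphoid group 29 of 38 genes were tested, and 20 of these had signal on all 4 arrays. Changes ran from -2.44 to 2.72 around a median of -0.04, with 13 genes above 0 and 16 below. After normexp background correction 18 of the 29 were above 0. The groups did not overlap for 16 genes, 8 higher and 8 lower in SNL, where 24.7% and 20.7% of all genes did so. Of the 8 lower genes, 5 (Clec2h, Klra10, Klra2, Klra23 and Klrd1) were well above background in the sham mice only and entered the test through them, and over the genes with signal on all 4 arrays the median change was 0.26. At least 2-fold as well were 4 genes higher and 3 lower, where 2.34% and 0.94% of all genes did so, and all 7 were Klra genes.

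Klra15 was at -6.59 and -6.05 in sham and at -3.63 and -3.58 in SNL. Klra12 was at -6.00 and -6.49 against -3.87 and -4.05. Klra4, which encodes the activating receptor Ly49D, was at -5.12 in both sham mice and at -3.33 and -3.18 in SNL. Klra33, at -7.17 and -7.00 against -5.79 and -5.32, was the fourth gene with both SNL mice more than 2-fold above the sham mean. The changes were 2.72 ± 0.22, 2.28 ± 0.21, 1.87 ± 0.11 and 1.54 ± 0.21, or 6.58-fold, 4.85-fold, 3.65-fold and 2.90-fold. A second Klra15 probe was well above background in the SNL mice only (-6.38 and -6.78). None of the 4 passed in limma (adjusted p from 0.0528 to 0.160), although Klra15, Klra12 and Klra4 passed after normexp correction, and also when the prior variance followed a trend and was estimated robustly. The Klra15 and Klra4 probes printed above are closely alike, and their values are not counted as separate evidence of 2 genes. The Klra7 and Klra23 probes printed there are about as close to the Klra4 probe and were at 0.57 and -0.20. Whether the Klra15 and Klra4 probes read the same transcripts was not tested.

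In the opposite direction, Klra8, which encodes Ly49H, the activating receptor for a cytomegalovirus protein, was at -3.34 and -3.68 in sham and at -5.88 and -6.02 in SNL. Klra10 was at -5.22 and -5.53 in sham and in neither SNL mouse well above background. By the signals of the main setting it was at least 2.88-fold lower, a bound that did not hold after normexp correction. Klra6 was at -4.01 and -4.37 against -5.07 and -5.38. Both SNL mice lay below both sham mice in these 3 genes. The changes of Klra8 and Klra6 were -2.44 ± 0.16 and -1.04 ± 0.20, with limma adjusted p of 0.0697 and 0.227, and Klra8 passed in those same alternative settings. The fitted change of Klra10 was -1.54 ± 0.14, and -0.91 after normexp correction.

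The probes of one Klra gene did not always give the same value. Klra8 has 3 detected probes: the brightest, at -2.44, one at -6.09 and -6.04 in sham that was in neither SNL mouse well above background, and one at -0.17 with levels of -4.95 and -4.86 in sham and -5.06 and -5.09 in SNL. Klra7 has 3 as well: the brightest at -0.16, one at 0.57, and one at -7.16 and -7.41 in sham that was in neither SNL mouse well above background. The Klra23 probe printed above was at -0.20, and the Klra7 probe printed there was the one at 0.57. Along mm9 chromosome 6, the 6 genes with a mapped brightest probe and a change of at least 1, picked by that change, fell into stretches of different direction. The Klra6 probe at 129963349 was lower in SNL, those of Klra4 at 129994035, Klra12 at 130002997 and Klra33 at 130012037 were higher, and those of Klra8 at 130065245 and Klra10 at 130229304 were lower. Other Klra genes lay among or beside them with smaller changes. The brightest Klra22 probe, at 129922175, was at 0.75, higher without overlap. The other detected Klra22 probe, well above background in the sham mice only, was at -0.48. Klra9 at 130139716 was at -0.31, with overlap. Over all 15 tested of 17 Klra genes the median change was -0.15, with 6 higher and 5 lower without overlap, where 24.7% and 20.7% of all genes did so. Which Klra copies each of these outbred mice carries was not measured. Inherited differences between the mice and the tied nerve therefore cannot be told apart for these genes.

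**Figure D4:**
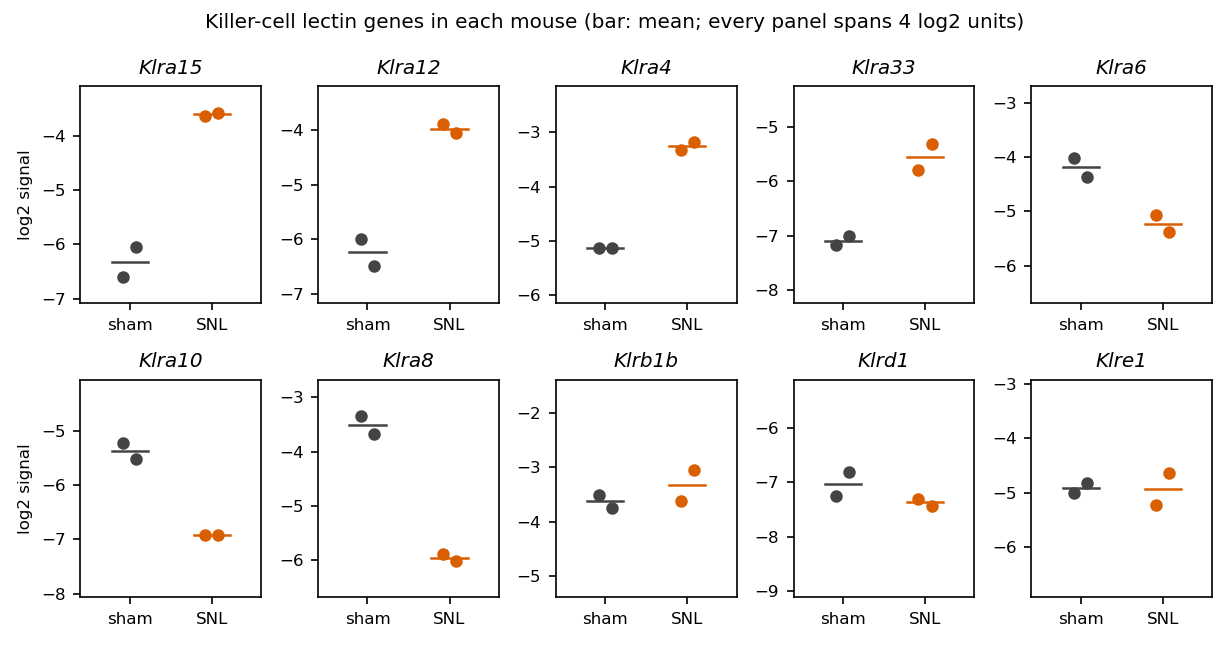
Log2 signal of 10 killer-cell lectin genes in each mouse, with the group mean as a bar and every panel spanning 4 log2 units. Klra15, Klra12, Klra4 and Klra33 are high in both SNL mice, Klra6, Klra10 and Klra8 are low in both, and Klrb1b and Klre1 overlap.

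The Klr genes outside the Klra family had 9 of 14 members tested, with changes from -0.35 to 0.96, and by each gene's brightest probe none was 2-fold apart without overlap. Klrd1, which encodes CD94, the shared chain of the Qa-1 receptors, was at -7.25 and -6.80 in sham and in neither SNL mouse well above background (-7.31 and -7.44), a change of -0.35 ± 0.19 that was -0.01 after normexp correction. Klrc1, its inhibitory partner NKG2A, was at -8.29 and -7.38 against -7.09 and -6.65, with signal above background in 1 mouse of each group. Klrk1, the activating receptor NKG2D, was well above background on no array.

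Klrb1b, the inhibitory receptor for Clec2d, was at 0.30 ± 0.24 by its brightest probe. Its second probe, detected on all 4 arrays, was at -7.40 and -7.67 in sham and at -6.36 and -6.30 in SNL (1.21). Those sham levels lay below the lowest signal well above background on either SNL array. The third Klrb1b probe was well above background in the SNL mice only (-6.60 and -6.53). The mean of the 3 probes gave 1.28 and so rests in part on dim sham signals. Klrb1c, a marker by which NK cells are sorted, was above background in 1 mouse of each group, at 0.91 ± 0.96. Klrg1, an inhibitory receptor for cadherins, and Klre1, a chain that pairs with Klri receptors, were at -0.18 ± 0.14 and -0.01 ± 0.24. In these 4 genes the brightest probe's groups overlapped.

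The Clec2 proteins are surface ligands of the Klrb1 receptors. Clec2d was at -4.81 and -5.01 in sham and at -3.97 and -5.39 in SNL, the SNL mice lying on either side of the sham mice. Clec2i was at -7.15 and -7.09 against -6.17 and -6.46, higher in both SNL mice at 0.80 ± 0.14, and did not pass (limma adjusted p = 0.202). Its sham levels, too, lay below the lowest signal well above background on either SNL array. Cd72, an inhibitory co-receptor of B cells whose gene overlaps Tesk1 in RefSeq, was at 1.03 and 1.11 against 1.03 and 0.99, and Cd69, the early activation marker of lymphocytes, was well above background on no array.

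NK and T cell markers were read in the same arrays. Of 18 in the list 16 were tested, none was called, and the median change was 0.60. Without overlap 10 were higher in SNL and none was lower, where 24.7% and 20.7% of all genes were so. The summed signal was 1.37 and 1.35 in sham and 1.62 and 1.70 in SNL. Ncr1, an activating receptor of NK cells, was at -5.44 and -5.63 in sham and at -6.09 and -5.39 in SNL, with overlap. Ms4a4b, Cd8a and Cd3e were at 1.37 ± 0.11, 0.91 ± 0.21 and 0.87 ± 0.17. Cd3d and Cd3g, which encode other chains of the CD3 complex, were at -0.46 ± 0.42 and 0.10 ± 0.52, and Lck and Tbx21 at 0.07 ± 0.15 and 0.04 ± 0.09, all with overlap. Gzmb and Trbc2 were not well above background on enough arrays. The part of these markers in the changes of the Klra genes was not tested.

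Stromal and other members lay near 0 or slightly below. Of 8 genes 7 were tested, 6 of them below 0, with a median of -0.18 and a range of -0.41 to 0.21. Clec11a, Clec16a and Clec2l were lower in both SNL mice without overlap, as were 20.7% of all genes, and by less than 2-fold. Mrc2, the collagen uptake receptor Endo180 of fibroblasts, was at -2.77 and -3.76 in sham and at -3.42 and -3.73 in SNL, a change of -0.31 ± 0.39 with overlap. Clec14a, an endothelial lectin, was at -0.41 ± 0.25. The 7 endothelial markers had a median of -0.21, 5 of them lower in SNL without overlap, where 20.7% of all genes were so.

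Downstream of the receptors, all 24 listed adaptors, kinases and phosphatases were tested and none was called, with a median change of 0.49. In SNL 17 were higher without overlap and 2 lower, where 24.7% and 20.7% of all genes were so. The adaptors of activating lectins were at 0.93 ± 0.10 for Fcer1g, which serves Mincle and Dectin-2, and at 0.90 ± 0.15 for Tyrobp, which serves activating Ly49 receptors. Fcer1g was at 0.98 and 0.90 in sham and at 1.81 and 1.93 in SNL, both SNL mice being higher. Syk, the kinase of this pathway, was at 0.51 ± 0.13, and the phosphatases Inpp5d and Ptpn6, which carry inhibitory signals, were at 1.11 ± 0.15 and 0.78 ± 0.10. Card9, which links Syk to NF-kB, was at -0.08 ± 0.10, with overlap, and Malt1, its partner, at -0.11 ± 0.09.

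Among 17 ligands and partners 13 were tested and none was called, with a median of 0.14. In SNL 5 were higher without overlap, where 24.7% of all genes were so. The NKG2D ligands Raet1a and Raet1c were at 0.90 ± 0.13 and 1.12 ± 0.35, while Raet1e and Ulbp1, of the same ligand group, were at -0.17 ± 0.34 and 0.11 ± 0.21 with overlap. The Raet1a sham levels, -7.40 and -7.64, lay below the lowest signal well above background on either SNL array. Lgals9, a galectin, was at 0.65 ± 0.09. Sap130, a nuclear protein that Mincle binds when cells die, was at -0.01 ± 0.10, and podoplanin (Pdpn), the ligand of Clec1b, at 0.14 ± 0.13. H2-T23, which encodes Qa-1, was at 0.24 ± 0.10. Cdh1, the cadherin that anchors Langerhans cells and is bound by Klrg1, was at -2.63 and -7.00 in sham and at -2.15 and -3.64 in SNL, with sham replicate 2 far below the other 3 mice.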

How the data were processed

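Per the labels' protocols, RNA was extracted from each mouse and amplified with Cy3 for 1-colour Agilent arrays (design 028005, probe positions on mm9 per the file headers). The deposited scanner files hold spot intensity processed by Agilent Feature Extraction, in version 10.7.3.1 going by the file headers, while the submitters' processing notes name 10.7.1.1. The authors' deposited table of log2 values correlated with each array at a value that rounds to 1, was shifted by 0.122 to 0.132, and was an alternative. How that table was normalized is not stated in any label.

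Control spots and outlier spots were left out, the log2 of the processed signal was centred on each array's 75th percentile, and each gene took its brightest probe among those well above background on at least 2 of 4 arrays. The groups were compared by limma 3.58.1 (R 4.3.3), with no covariate, 2 residual and 1.65 prior degrees of freedom, and Benjamini-Hochberg adjustment over 29246 genes. Genes were called at an adjusted p under 0.05. The number of arrays limits the precision, with a median SE of 0.13 over genes and 0.23 over members, and with 2 mice against 2 the smallest two-sided p of an exact permutation test is 0.333. A bound sets the brighter mean against the higher of the dim probe's signal and the lowest signal well above background. Where a probe was dim on some arrays, the fitted change rests on surrogate signals.

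Replicate numbers do not pair the mice, since deviations of same-numbered arrays correlated at -0.03. Members, gene lists, markers and the rule for named genes (a change of at least 1 without overlap, plus well studied members) were chosen with earlier results of these data known. The fit was tested on simulated data.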

Additional observations from a re-analysis of the deposited data

How the results depend on the processing

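Members called, 1 in the main setting, numbered 5 with normexp correction, 0 with quantile normalization, 7 with no filter on dim probes, 2 with signal on all 4 arrays, 2 with the mean of a gene's probes, 5 with a variance trend and robust estimation, and 0 on leaving out each mouse in turn. All genes called higher, 47, were 119, 11, 1137, 48, 63, 422 and 0 in the same order, and those called lower, 3, were 14, 0, 88, 5, 7, 117 and 0. With the replicate number as a block 0 members, 0 higher and 0 lower genes were called, with Cd207 at an adjusted p of 0.198 in limma, and both group medians stayed at -0.04 and 0.30. The normexp and trend settings each called Cd207, Klra12, Klra15, Klra4 and Klra8. With no filter Klra10 and Klrk1 were called as well. Klrk1 was well above background on no array, at -10.12 and -10.11 in sham and at -9.10 and -9.15 in SNL, so that call rests on dim signals only. The lymphoid median, -0.04, was 0.14 with normexp correction, 0.26 with no filter, 0.26 with signal on all 4 arrays, and -0.093 to 0.22 on leaving out each mouse. The myeloid median, 0.30, was 0.55 with signal on all 4 arrays, 0.55 with the mean of probes, and 0.11 to 0.62 on leaving out each mouse. Counts of calls fell to 0 with fewer mice, where the lone mouse of a group is assumed to vary like the other group. At an unadjusted p under 0.05 in limma, 14 members stood in the main setting and 16 to 20 without 1 mouse. The deposited table called the same single member. The planned slide and scan block was not run, with 1 slide and 1 scan. The causes of the moves with background correction were not tested.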

Other observations

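Lectins outside the name rule, listed for comparison, included Colec10, Sele and Selp, in which both SNL mice lay above both sham mice, and none was called by limma. Colec10, a soluble collectin, was at -9.93 and -7.71 in sham and at -5.12 and -5.41 in SNL, with signal above background on 3 arrays, so no fold is given. The endothelial selectin Sele was above background on 2 arrays only, with levels of -6.70 and -4.90 in SNL. Selp, another selectin of endothelium, was at -6.63 and -6.35 in sham and at -5.96 and -3.83 in SNL, so that SNL replicate 2 carries most of its change. Mgl2, a close relative of Clec10a, was at -0.13 ± 0.10, lower in both SNL mice. The hyaluronan-binding lecticans Ncan and Bcan of the neural matrix were at -0.40 ± 0.13 and -0.003 ± 0.12.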
